A study of Mus musculus with 141 samples.

Results

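The sodium-phosphate cotransporter genes *Slc34a1*, *Slc34a2*, *Slc34a3*, *Slc20a1*, *Slc20a2*, *Slc17a1* and *Slc17a3* were examined in liver, lung and kidney of the Collaborative Cross (CC), a panel of recombinant inbred mouse strains. They were chosen by gene symbol, and they are 7 of the 24423 genes quantified in every RNA-seq library. Each of 47 CC strains was represented by 1 male mouse aged 8 to 12 weeks, and that mouse gave all 3 tissues. All mice were fed the same wafer diet, spent 6 hours a day on weekdays in chambers with clear air over the weeks before tissue collection, and received no other exposure. A strain therefore has no replicate mouse, so differences between strains cannot be told apart from differences between individual mice. The questions asked were which cotransporter each tissue uses and how far the level of each varied among the 47 strains.

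Inorganic phosphate enters cells together with sodium, through carriers of 3 families. The type II carriers of the Slc34 family sit in the apical membrane of epithelia: *Slc34a1* (NaPi-IIa) and *Slc34a3* (NaPi-IIc) take up filtered phosphate in the brush border of the renal proximal tubule, and *Slc34a2* (NaPi-IIb) works in the small intestine and in the alveolar type 2 cell, where it takes up phosphate from the alveolar fluid. The type III carriers *Slc20a1* (PiT-1) and *Slc20a2* (PiT-2) were first known as retrovirus receptors and are used by most cells for their own phosphate supply. *Slc17a1* (NPT1) and *Slc17a3* (NPT4) belong to the type I family, were first described as phosphate carriers, and also move organic anions such as urate. Parathyroid hormone and FGF23, with its coreceptor Klotho, lower renal phosphate uptake by removing the type II carriers from the brush border, and the scaffold protein NHERF1 (encoded by *Slc9a3r1*) holds *Slc34a1* protein there.

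In the NCBIM37 annotation (GENCODE vM1, the build named for the reads), *Slc34a1* lies on chromosome 13 from 55501009 to 55516056 on the plus strand, and *Slc34a3* on chromosome 2 from 25084418 to 25089884 on the minus strand. *Slc34a2* lies on chromosome 5 from 53429321 to 53462903, *Slc20a1* on chromosome 2 from 129024500 to 129037352 and *Slc20a2* on chromosome 8 from 23587172 to 23680079, all on the plus strand. *Slc17a3* (chromosome 13, 23931303 to 23952583) and *Slc17a1* (chromosome 13, 23959619 to 23987599) are plus-strand neighbours 7035 bases apart, in a cluster with *Slc17a2* and *Slc17a4*. RefSeq promoter entries (GRCm38.p6) were matched for 6 of the 7 genes, all but *Slc20a2*. The 200 bases that end at the start site are shown for the type II genes, since these are the members with the sharpest tissue pattern. The stretches are chr13:55399448-55399647 on the plus strand for *Slc34a1*, chr5:53049153-53049352 on the plus strand for *Slc34a2* and chr2:25234235-25234434 on the minus strand for *Slc34a3*. They are written 5′ to 3′ in the direction of transcription, and capitals mark GTTAAT or its reverse complement ATTAAC, a core recognised by the liver and kidney factor HNF1.
Slc34a1: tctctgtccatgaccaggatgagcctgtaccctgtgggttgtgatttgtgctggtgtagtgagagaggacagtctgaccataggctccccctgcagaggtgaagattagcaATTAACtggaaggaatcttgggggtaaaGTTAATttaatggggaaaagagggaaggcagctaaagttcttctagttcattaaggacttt
Slc34a2: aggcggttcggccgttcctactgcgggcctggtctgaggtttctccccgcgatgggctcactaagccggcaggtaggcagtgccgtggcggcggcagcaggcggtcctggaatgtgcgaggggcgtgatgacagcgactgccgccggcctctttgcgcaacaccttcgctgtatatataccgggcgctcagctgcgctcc
Slc34a3: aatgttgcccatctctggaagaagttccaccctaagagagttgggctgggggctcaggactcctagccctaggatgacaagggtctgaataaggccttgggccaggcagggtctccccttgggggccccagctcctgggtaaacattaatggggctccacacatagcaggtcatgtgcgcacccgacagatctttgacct
The *Slc34a1* stretch held 2 such matches, and the stretches of the other 5 genes with an entry held 0. Of 32851 RefSeq promoters, 5.06% held at least 1 match in the same 200 bases, counted on both strands. The search was for these letters only, and a TATA box spelled TATAAA, found in 6.27% of promoters, was in none of the members' stretches.

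Libraries held between 1738046 and 42158454 expected counts, with a median of 9043226. The tissues carried their defining markers: the summed level of 10 proximal tubule genes was 3775 TPM or more in kidney, that of 8 alveolar type 2 genes 6747 TPM or more in lung, and that of 6 hepatocyte genes 32570 TPM or more in liver. Elsewhere these sums reached at most 2995 TPM (in liver), 4349 TPM (in kidney) and 7942 TPM (in kidney). Not every listed gene was highest in its tissue: *Napsa*, an alveolar type 2 gene, was higher in kidney than in lung (lung over kidney -3.53, log2). TPM, a level per transcript length, was used to set genes beside each other. CPM, the count of a gene relative to its library after TMM scaling (a trimmed mean of log ratios between libraries), was used to compare tissues. The files name 1 transcript each for *Slc34a1*, *Slc34a2*, *Slc34a3* and *Slc20a2*, but 2 for *Slc20a1* and *Slc17a3* and 3 for *Slc17a1*. Over all genes, those with several named transcripts were less often over 1 CPM than those with 1 (27.3% against 50.4% in kidney), and the authors counted uniquely aligned reads, so the levels of *Slc20a1*, *Slc17a1* and *Slc17a3* are not ranked firmly against the other members. In whole tissue, fewer cells of a type and less RNA per cell cannot be told apart.

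*Slc34a1* was the leading cotransporter of the kidney. Its renal level ran from 1414 TPM in CC020 through a median of 3303 TPM to 5577 TPM in CC038. In liver the lowest, median and highest levels were 0.17, 2.40 and 59.3 TPM, and in lung 0.19, 3.15 and 24.97 TPM. The lowest kidney stood far above the highest liver and the highest lung, with no overlap. The log2 fold change of liver over kidney was -9.25 (SE 0.15, limma-voom, q = 1.7e-78), and that of lung over kidney -10.33 (SE 0.15, q = 1.4e-81), with kidney higher in 47 of 47 mice both times. Between liver and lung the log2 fold change was 1.08 (SE 0.15, q = 2.7e-10) with overlapping groups, 34 of 47 mice higher in liver. On TPM that difference was -0.14 (q = 0.46), and without strains CC020 and CC035 it was 0.90, so it did not hold across scalings.

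*Slc34a2* took the same place in lung. Lung levels ran from 290 TPM in CC015 through 1473 TPM to 3174 TPM in CC053. The kidney range was 2.47 to 29.99 TPM with a median of 6.33 TPM, and the liver range 0.41 to 51.5 TPM with a median of 1.74 TPM. Every lung therefore exceeded every liver and every kidney. Lung was higher than kidney by a log2 fold change of 7.11 (SE 0.13, q = 5.7e-74), and liver was lower than lung by -7.43 (SE 0.13, q = 3.0e-74), each in 47 of 47 mice. Liver and kidney overlapped, and their log2 fold change of -0.32 (SE 0.13, q = 0.024) stayed short of the threshold of 1, while kidney was higher in 36 of 47 mice. On TPM this difference was -1.14 (q = 1.8e-12).

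*Slc34a3*, the other brush-border carrier, was resolved in every kidney and, over 3 counts, in 1 lung. Its kidney levels were 10.1 TPM in CC020, 36.2 TPM at the median and 84.8 TPM in CC038. All 47 livers and 46 of 47 lungs held 3 counts or fewer, with 0 counts in 32 livers and 33 lungs. Summed over libraries, 14046 counts in kidney stood against 16 in liver and 27 in lung, which gives a level 593-fold (exact 95% interval 365 to 1037) and 755-fold (519 to 1147) higher in kidney. The intervals cover counting error only. The fitted log2 fold changes were -7.61 (SE 0.11, q = 1.8e-82) for liver and -8.65 (SE 0.11, q = 3.3e-87) for lung. They are smaller than the summed counts give. Other tools gave -8.80 and -9.01 (edgeR) and -8.79 and -9.31 (DESeq2). With liver and lung at the floor, the direction is read from the fit but not the size, and the SE does not cover this. No fold was read between liver and lung, where both were at the floor. At the median, *Slc34a3* was thus present in kidney at a level far below that of *Slc34a1*, and the lowest *Slc34a1* kidney exceeded the highest *Slc34a3* kidney.

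**Figure D1:**
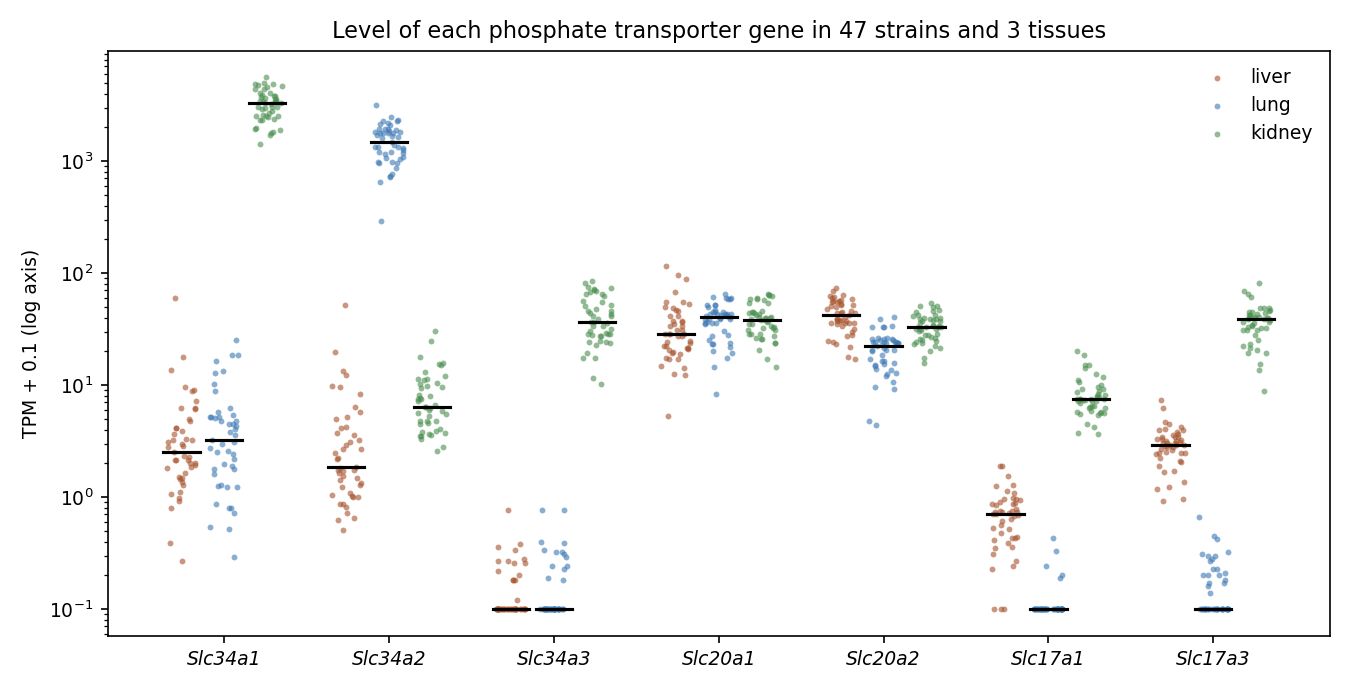
Deposited TPM of the 7 cotransporter genes in 47 strains; each point is 1 library, black bars are medians, and 0.1 was added for the log axis. *Slc34a1* reaches a median of 3303 TPM in kidney and *Slc34a2* 1473 TPM in lung, while *Slc20a1* and *Slc20a2* lie between 22.0 and 42.2 TPM at the median in all 3 tissues.

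The type III carriers were present everywhere. *Slc20a1* ran from 5.21 to 115 TPM in liver (median 28.4 TPM), from 8.13 to 64.7 TPM in lung (median 40.1 TPM) and from 14.4 to 64.3 TPM in kidney (median 38.3 TPM). *Slc20a2* ran from 17.0 to 72.9 TPM in liver (median 42.2 TPM), from 4.27 to 40.0 TPM in lung (median 22.0 TPM) and from 15.5 to 53.6 TPM in kidney (median 32.9 TPM). All 3 tissues overlapped for both genes on this scale. The CPM scale gave *Slc20a2* a clear order, with medians of 95.4 in liver, 40.1 in kidney and 15.3 in lung. Liver was higher than lung by 2.55 (log2, SE 0.05, q = 2.4e-71) and than kidney by 1.29 (SE 0.05, q = 2.3e-45), and lung was lower than kidney by -1.26 (SE 0.05, q = 5.0e-44), each in 47 of 47 mice. On TPM the direction held in all 3 comparisons, but only liver over lung kept a log2 fold change of at least 1 (1.04, q = 8.7e-19).

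For *Slc20a1* the direction itself depended on the scaling. With CPM, liver was higher than lung by 1.23 (log2, SE 0.09, q = 4.5e-25) and than kidney by 0.66 (SE 0.09, q = 3.4e-11), and lung was lower than kidney by -0.57 (SE 0.09, q = 3.5e-09). With TPM, liver was lower than lung by -0.30 (q = 0.028) and than kidney by -0.33 (q = 0.014). The same scaling moved the median of all genes tested by -1.16 between liver and lung and by -0.71 between liver and kidney, so the direction of *Slc20a1* is relative to the genes around it. The balance between the paralogs is free of the scaling. The ratio of *Slc20a1* to *Slc20a2* TPM had a median of 0.763 in liver (0.268 to 1.76), 1.18 in kidney (0.689 to 1.96) and 1.82 in lung (1.06 to 3.52). *Slc20a1* exceeded *Slc20a2* in 9 of 47 livers, 32 of 47 kidneys and 47 of 47 lungs, and the ratio was higher in lung than in liver of the same mouse in 44 of 47 mice. Since the files name 2 transcripts for *Slc20a1* and 1 for *Slc20a2*, the shift of the ratio between tissues is firmer than its size.

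**Figure D2:**
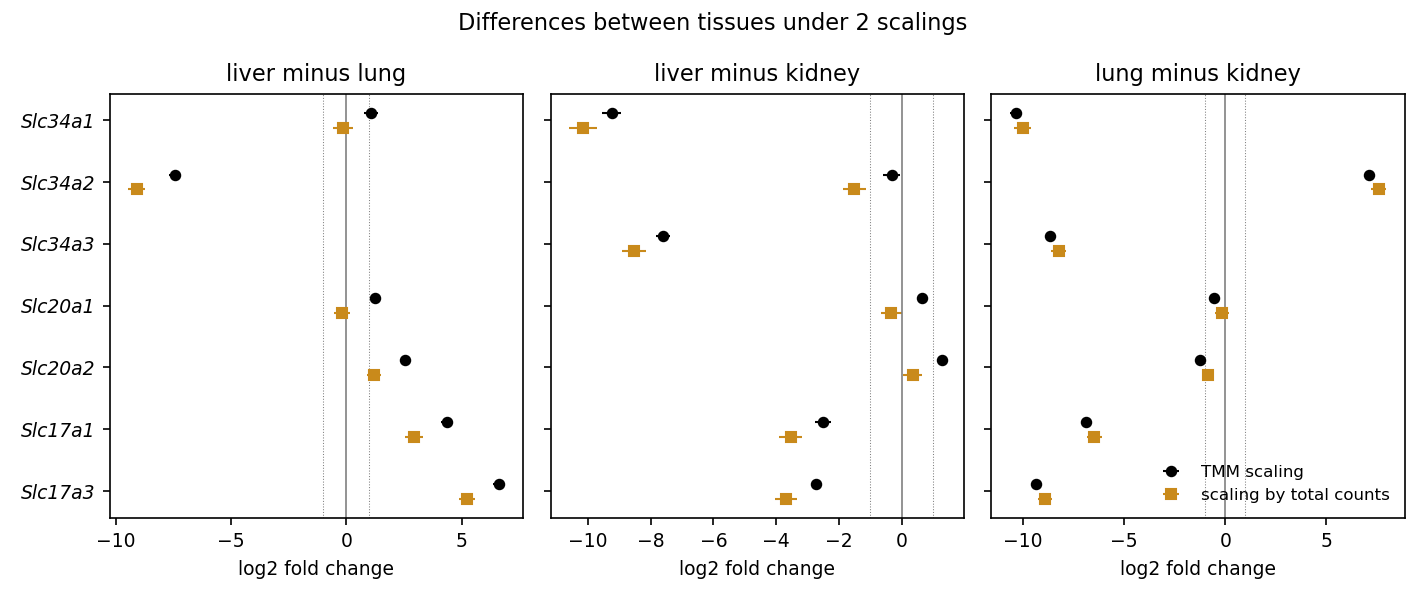
Log2 fold change of each cotransporter gene in 3 tissue comparisons, with 95% intervals as bars, under TMM scaling (black) and by total counts (orange). Dotted lines mark a log2 fold change of 1 and -1; *Slc34a3* is left out of liver minus lung. *Slc34a1*, *Slc34a2* and *Slc34a3* keep large differences under both against the tissue of their highest level. Between liver and lung, *Slc20a1* moves from 1.23 to -0.18 and *Slc34a1* from 1.08 to -0.14.

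The type I genes were highest in kidney and not resolved in lung at this depth. *Slc17a3* ran from 8.67 to 80.9 TPM in kidney (median 38.5 TPM) and from 0.82 to 7.18 TPM in liver (median 2.84 TPM), without overlap, while all 47 lungs held 3 counts or fewer. *Slc17a1* ran from 3.55 to 20.2 TPM in kidney (median 7.36 TPM) and from 0 to 1.81 TPM in liver (median 0.60 TPM), also without overlap on this scale, with 16 livers at 3 counts or fewer and no lung over 1 count. Kidney was higher than liver by a log2 fold change of 2.72 for *Slc17a3* (liver over kidney -2.72, SE 0.08, q = 5.3e-56), and the value for *Slc17a1* was close to it (liver over kidney -2.51, SE 0.13, q = 4.0e-35), each in 47 of 47 mice. Summed over libraries, *Slc17a3* was 962-fold (exact 95% interval 698 to 1367) and *Slc17a1* 787-fold (337 to 2425) higher in kidney than in lung, from 37 and 5 lung counts. Liver stood above lung for both, by 143-fold (103 to 203) and 132-fold (56.0 to 410). Their chromosomal neighbours went the other way: *Slc17a2* had a median of 126 TPM in liver and 0.21 TPM in kidney (log2 fold change 9.92, SE 0.13, q = 1.8e-85), and *Slc17a4* 43.9 and 5.92 TPM (3.68, SE 0.10, q = 2.2e-59). The Slc17 cluster on chromosome 13 thus held genes that were higher in kidney beside genes that were higher in liver.

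Of the 7 genes, 5 were called higher in kidney than in lung (*Slc34a1*, *Slc34a3*, *Slc20a2*, *Slc17a1* and *Slc17a3*), against 20.6% of the 12127 genes tested, and 1 (*Slc34a2*) higher in lung than in kidney, against 25.5%. Against liver, 4 were called higher in kidney (20.8% of all genes) and 1, *Slc20a2*, higher in liver (15.6%). Between liver and lung, 5 of the 6 members above the floor in at least 1 of the tissues were called higher in liver (23.9%) and *Slc34a2* higher in lung (31.0%). A call needed q ≤ 0.1 and a change of 1 or more on the log2 scale. The 5 calls toward liver fell to 2 or 3 with TPM, total counts or the size factors of DESeq2, with *Slc20a1* and *Slc34a1* losing the call each time and *Slc17a1* losing it with log2(TPM + 1).

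As a share of the summed TPM of the 7 genes, *Slc34a1* made up 94.9% ± 1.31 (SD, n = 47) in kidney and *Slc34a2* 95.7% ± 0.959 (SD, n = 47) in lung, each leading in 47 of 47 libraries. In liver the sum was small, with a median of 84.8 TPM against 3484 TPM in kidney and 1535 TPM in lung. There *Slc20a2* held 48.8% ± 8.46 (SD, n = 47) and *Slc20a1* 36.6% ± 11.8 (SD, n = 47). *Slc20a2* led in 36 livers, *Slc20a1* in 9 and *Slc34a1* in 2. *Slc34a3* reached 1.25% ± 0.504 (SD, n = 47) of the renal sum. These shares are of RNA, not of carrier protein or of transport.

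The expression filter that the study describes for mapping genetic effects was rebuilt here. It asks for a TMM-normalized TPM over 1 in more than 50% of libraries, with no single library set apart by K-means clustering. The rebuilt filter kept all 7 genes in kidney, 5 in liver and 4 in lung. Of all genes it kept 10451 in kidney (42.8%), 8623 in liver (35.3%) and 11994 in lung (49.1%). Each total is larger than the one the study reports, so the study's own set may differ. *Slc34a3* and *Slc17a1* were removed in liver, and *Slc34a3*, *Slc17a1* and *Slc17a3* in lung, all for low level. Without TMM, *Slc34a1* and *Slc34a2* were removed in liver as well, because a single library was set apart in each, which left 3.

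Of 13 genes that regulate phosphate, 11 passed the filter on low counts. Of these, 7 were higher in kidney than in liver and 0 lower (median log2 fold change -4.50 for liver over kidney), against 20.8% and 15.6% of all genes. In kidney against lung, 5 were higher and 1 lower, against 20.6% and 25.5% of all genes. *Kl*, which encodes Klotho, had a median of 350 TPM in kidney, 0.27 TPM in liver and 0.74 TPM in lung (liver over kidney -9.06, SE 0.11, q = 1.8e-88). *Pth1r*, the parathyroid hormone receptor, had 28.2 TPM in kidney and 0.37 TPM in liver. Among 6 partners of *Slc34a1* protein at the membrane, 5 were tested, and 3 were higher in kidney than in lung (20.6% of all genes), 1 was lower (25.5%) and 1 was not called. *Tmem174*, which binds the carrier in the brush border, had a median of 437 TPM in kidney and 0.29 TPM in both other tissues (lung over kidney -10.60, SE 0.14, q = 6.6e-87), and *Pdzd3*, a scaffold of the NHERF family, 120 TPM in kidney. *Slc9a3r1* (NHERF1) was found in every tissue, at 245 TPM in kidney, 115 TPM in liver and 51.1 TPM in lung. *Xpr1*, the phosphate exporter, was at 81.0 TPM in kidney, 40.5 TPM in lung and 15.5 TPM in liver.

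Strain-to-strain spread was narrower for *Slc34a1* and *Slc34a2* in their leading tissue than outside it. The coefficient of variation (CV) of CPM was 21.6% for *Slc34a1* in kidney and 19.2% for *Slc34a2* in lung, and the SD of log2 CPM ranked at the 38.4 and 24.5 percentile among all genes of those tissues. *Slc34a3* varied more in kidney, with a CV of 41.3% and the 70.3 percentile. *Slc17a3* and *Slc17a1* had a CV of 35.0% and 32.7% in kidney. *Slc20a1* was steadiest in lung (15.6%, the 13.4 percentile) and most variable in liver (50.1%, the 66.5 percentile), from 23.9 CPM in CC011 to 167 CPM in CC044. *Slc20a2* was steadiest in liver (15.4%, the 12.8 percentile). The steadiest tissue depended on the scale. On TPM it was kidney for both genes. There the TPM CV was 33.1% for *Slc20a1*, against 34.0% in lung and 64.2% in liver. For *Slc20a2* it was 27.3% in kidney, against 31.7% in liver and 38.3% in lung. Outside its leading tissue, *Slc34a1* had a CV of 202% in liver and 110% in lung, and *Slc34a2* 170% in liver and 65.5% in kidney, between the 76.9 and 98.5 percentile of all genes. With TPM the CV in the leading tissue was larger, at 30.9% for *Slc34a1* and 37.7% for *Slc34a2*. Outside it the TPM CV of these genes ran from 68.5% to 185%. The CV includes counting error and the individual mouse, since each strain gave 1 library per tissue.

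Across the 47 kidneys, the genes with a strain pattern most like *Slc34a1* were *Pfn3*, *Slc25a39*, *Aldh4a1*, *Slc9a3r1* and *Aph1a*, with r from 0.65 to 0.70 (Pearson r of rank inverse normal CPM, permutation of strains, q = 0.003 each). Of 12085 genes, 703 (5.82%) correlated positively with *Slc34a1* at q ≤ 0.1. *Slc9a3r1* encodes NHERF1, the scaffold of the carrier. It had r = 0.65 (p = 2e-06) and Spearman rho = 0.65 (p = 4e-06) with *Slc34a1*, and r = 0.62 without the 2 strains farthest from the median. It was the sole one of 6 membrane partners past the threshold. Of the 10 phosphate regulators measured in kidney, *Fgfr4* (r = 0.49, q = 0.025) and *Kl* (r = 0.44, q = 0.045) passed, and so did 3 of 9 proximal tubule markers. *Pfn3* is annotated on the minus strand from 55510259 to 55516543 and so overlaps the *Slc34a1* gene, and strand-specific counting is not stated, so their reads may not be separate.

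The 5 genes most like *Slc34a3* in kidney were *Slc5a2*, *Tmem160*, *Acss1*, *Slc22a23* and *Rilpl2* (r from 0.60 to 0.70, q from 0.012 to 0.015), and 1.41% of genes correlated positively with it. *Slc5a2* encodes SGLT2, the glucose carrier of the early proximal tubule. It gave r = 0.70 (p = 1e-06, the smallest the permutations can give) and rho = 0.71 (p = 1e-06), and r = 0.64 without the 2 farthest strains. *Lrp2* (r = 0.49, q = 0.057) and *Slc5a12* (r = 0.45, q = 0.089) also passed, which made 3 of 9 proximal tubule markers. *Slc34a1* and *Slc34a3*, although both are brush-border carriers, had r = 0.19 (q = 0.48 among the genes tested against *Slc34a1*) across the same kidneys, and r = 0.49 (q = 0.00097) with TPM without TMM. *Slc17a3* was most like *Cpped1*, *Pmpcb*, *Hsd17b11*, *Bola3* and *Secisbp2l* (r from 0.66 to 0.74, q = 0.0027; 3.38% of genes positive), and it correlated with its neighbour *Slc17a4* (r = 0.45, q = 0.047) and with *Xpr1* (r = 0.57, q = 0.0072). No gene passed the threshold with *Slc17a1* in kidney, and its highest r was 0.59 (q = 0.23), with *AW549877*.

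**Figure D3:**
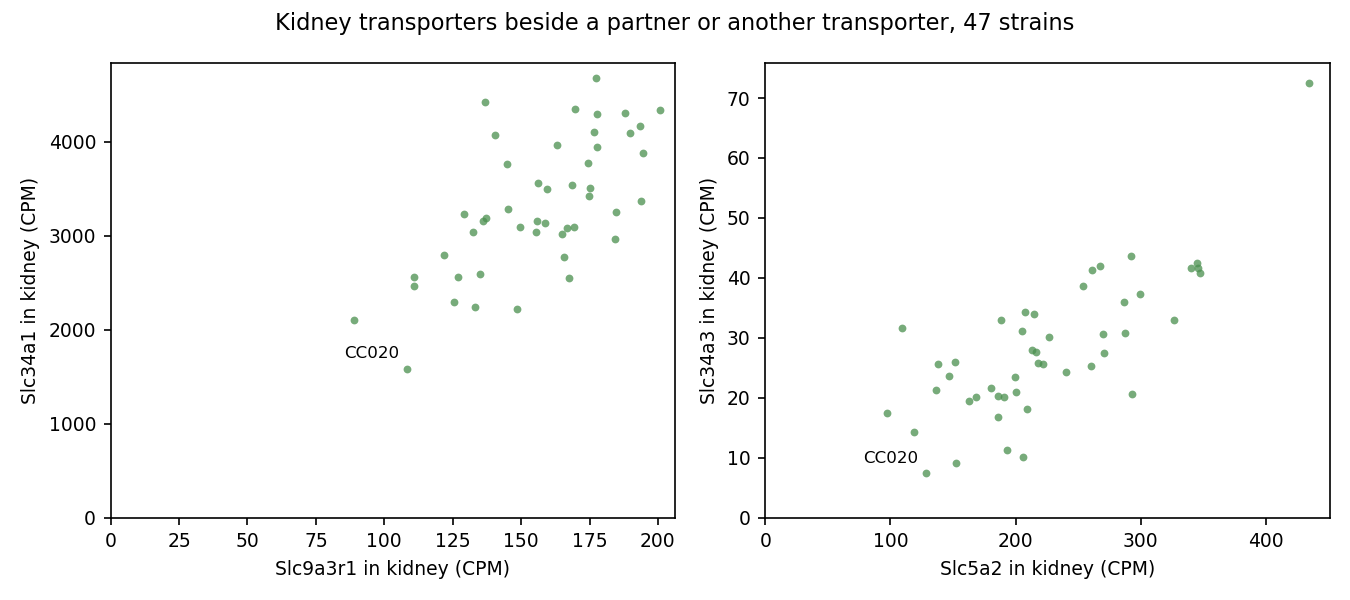
CPM in the kidneys of 47 strains, 1 point per strain. Left, *Slc34a1* rises with *Slc9a3r1* (r = 0.65); right, *Slc34a3* with *Slc5a2* (r = 0.70); CC020 lies at the low end of both carriers.

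The CC020 kidney stood apart for several members at once. It had the lowest *Slc34a1* (1414 TPM) and *Slc34a3* (10.1 TPM) and the highest *Slc34a2* (29.99 TPM) and *Slc20a1* (64.3 TPM) of the 47 kidneys, while *Slc20a2* ranked 25 from the top. *Kl* (145 TPM), *Tmem174* (234 TPM), *Lrp2* (583 TPM) and *Cubn* (167 TPM) were also the lowest there. *Lcn2*, a gene known to rise in injured tubules and picked after the values were seen, was at 153 TPM against a median of 5.22 TPM, the highest of all kidneys. Lung genes were high there too, with *Sftpd* (6.18 TPM) ranked 2, *Sftpc* (62.5 TPM) 3 and *Scgb1a1* (113 TPM) 4 from the top, and their part in the *Slc34a2* level was not tested. Whether the state of this kidney bears on the strain was not tested. Without CC020 and CC035, the correlation of *Slc34a1* with *Slc9a3r1* was 0.62 and that of *Slc34a3* with *Slc5a2* 0.67, both still past the threshold.

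Outside the kidney, *Slc34a1* moved with other kidney genes. In liver the 5 genes most like it were *Cubn*, *Slc7a13*, *Kap*, *Slc22a12* and *Fut9* (r from 0.87 to 0.92, q = 0.00053 each), and 0.351% of genes correlated positively. In lung they were *Kap*, *Mep1a*, *Slc7a13*, *Keg1* and *Slc22a6* (r from 0.87 to 0.95, q = 0.00049 each), with 0.351% of genes positive. *Kap* encodes the androgen-regulated protein of the proximal tubule, *Cubn* the brush-border receptor cubilin, and *Slc22a6* and *Slc22a12* organic anion carriers of the tubule. *Cubn* in liver gave r = 0.92 and rho = 0.92 (p = 1e-06 each) and r = 0.91 without the 2 farthest strains, and *Slc22a6* in lung r = 0.87, rho = 0.89 and r = 0.85. Of the proximal tubule markers measured, 4 of 6 in liver and 5 of 7 in lung correlated positively with *Slc34a1*.

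Set against the kidney of the same mouse, the kidney genes stood at low percentages that differed between genes. In a liver, *Slc34a1* was at a median of 0.132% of its level in the same mouse's kidney, *Kap* at 0.144%, *Tmem174* at 0.130%, *Kl* at 0.160%, *Slc22a12* at 0.174%, *Cubn* at 0.193% and *Slc5a2* at 0.212%. In lung the medians were 0.0620% for *Slc34a1*, 0.0591% for *Kap*, 0.0468% for *Tmem174*, 0.0693% for *Slc22a6* and 0.215% for *Slc5a2*. Some of these values rest on few reads. In the CC017 liver, for example, *Tmem174*, *Slc5a2* and *Kl* had 2, 4 and 4 counts, and in its lung *Tmem174* and *Slc5a2* had 2 and 5. The places of these genes among the others, also that of *Slc5a2* in lung, are therefore not read. The percentages of *Slc34a1* and *Kap* lay within 2-fold of each other in 39 of 47 livers and 38 of 47 lungs, and those of *Slc34a1* and *Cubn* in 40 of 47 livers, with a median ratio of 0.749. In the CC035 liver, the highest by TPM, *Slc34a1* was at 4.27% of the kidney level beside 3.33% for *Kap*, 3.25% for *Tmem174* and 5.14% for *Kl*. *Slc17a3*, by contrast, was at a median of 15.1% of the kidney level in liver and at 0 in lung. Whether the liver and lung reads of *Slc34a1* come from kidney RNA was not tested.

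**Figure D4:**
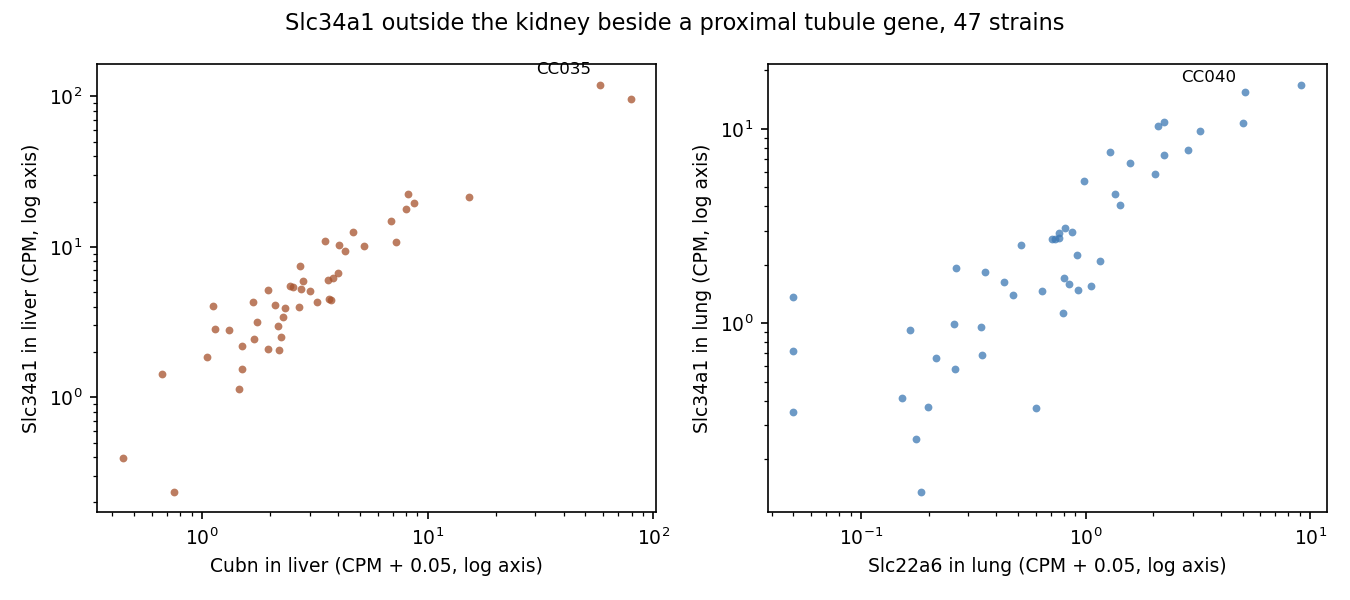
*Slc34a1* outside the kidney beside a proximal tubule gene, in CPM on log axes, 1 point per strain. In liver it rises with *Cubn* (r = 0.92) and in lung with *Slc22a6* (r = 0.87); 0.05 was added to *Cubn* and *Slc22a6*, since some lungs hold 0 counts of *Slc22a6*.

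Genes with a strain pattern like that of *Slc34a2* in lung included *Ripply3*, *Abhd2*, *Dhrs13* and *Etv5* (r from 0.57 to 0.65, q from 0.027 to 0.068), and 0.183% of genes correlated positively with it there. *Abhd2* encodes a lipase-like enzyme and *Etv5* a transcription factor needed by alveolar type 2 cells. The 8 alveolar type 2 markers had r from 0.04 to 0.51 with *Slc34a2* across lungs (median 0.34, against 0.03 over all genes), and 0 passed the threshold with the permutation test. An unadjusted p below 0.05 was found for 5 of them. The share of all genes under that p was not counted, so the 5 are not read as particular to these markers. In liver 0.0379% of genes were positive, among them *Sftpc*, the surfactant protein gene of the alveolar type 2 cell (r = 0.54, rho = 0.53, q = 0.088; r = 0.52 and q = 0.12 without the 2 farthest strains). The call of *Sftpc* was also lost with log2 CPM (q = 0.27), TMM-normalized TPM (q = 0.11) and TPM without TMM (q = 0.71). In kidney 0.0248% were positive, the first being *Sftpd* (r = 0.62, rho = 0.59, q = 0.089), and *Xpr1* had a negative correlation with *Slc34a2* (r = -0.58, rho = -0.52, q = 0.089). Without the 2 farthest strains neither kidney relation passed (q = 0.20 and q = 0.26), nor did either without CC020 and CC035 (q = 0.11 each) or with Spearman's rho (q = 0.11 for *Sftpd* and q = 0.23 for *Xpr1*).

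The *Slc34a2* levels outside the lung were only partly in proportion to lung genes. In liver it was at a median of 0.411% of the same mouse's lung level, *Sftpc* at 0.248% and *Sftpa1* at 0.457%. In kidney the medians were 0.718%, 0.110% and 0.0955%, and *Slc34a2* exceeded *Sftpc* in this percentage in 47 of 47 kidneys and 35 of 47 livers. It exceeded *Sftpa1* in 46 of 47 kidneys but in 15 of 47 livers, so in liver the direction differed between these lung genes. Among other alveolar type 2 markers, *Sftpd* was at a median of 0.585% in liver and 0.118% in kidney. *Napsa* was at 2.55% in liver and 1219% in kidney, so its level was higher in kidney than in lung. The CC053 liver held 51.5 TPM of *Slc34a2*, 5.82% of its lung level, beside 0.276% for *Sftpc*, 0.754% for *Sftpd* and 0.323% for the club cell gene *Scgb1a1*. In the CC017 liver *Slc34a2* was at 5.72%, beside 0.924% for *Sftpc*, 1.46% for *Sftpa1* and 3.72% for *Sftpd*. CC053 ranked first of 47 in liver and in lung and 3 from the top in kidney (17.7 TPM), CC017 ranked 2 in liver and 5 in kidney, and CC032 ranked 3 in liver and 2 in kidney. What cells carry this RNA was not tested.

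**Figure D5:**
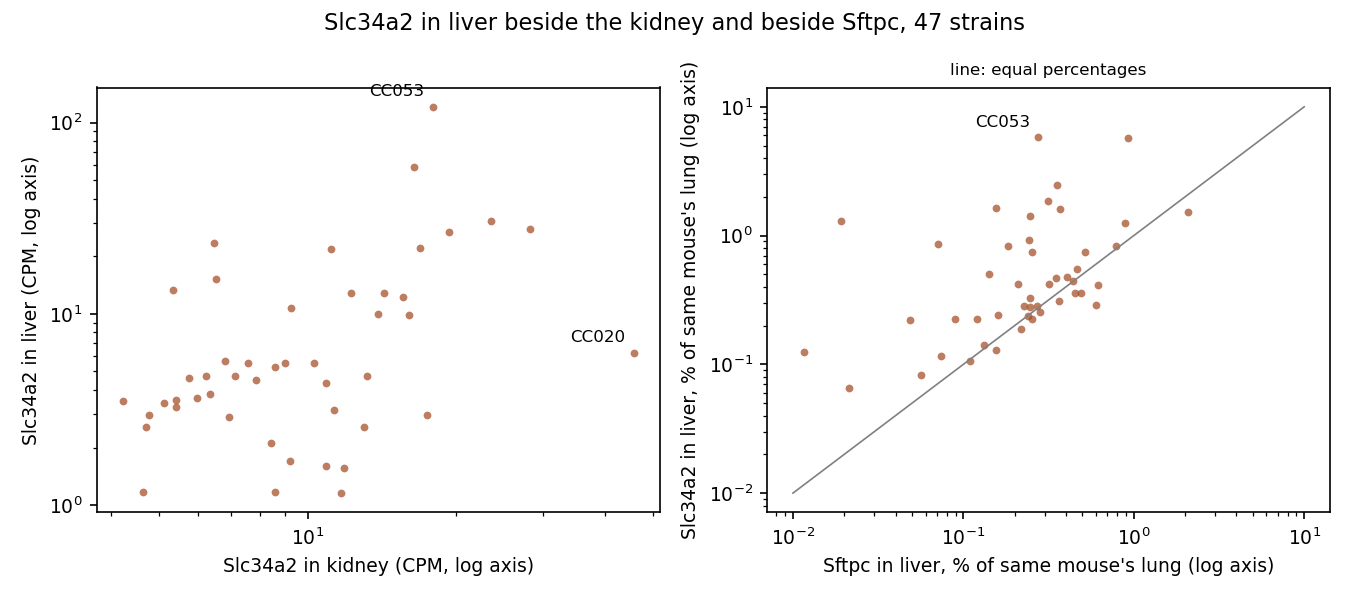
Left, CPM of *Slc34a2* in liver against kidney of the same strain on log axes, 1 point per strain (r = 0.45). Right, *Slc34a2* in liver as a percentage of the same mouse's lung against the same percentage for *Sftpc*, with the line of equal percentages; the CC053 liver lies at 5.82% for *Slc34a2* and 0.276% for *Sftpc*.

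The strain order of *Slc34a2* was shared by liver and kidney (r = 0.45, p = 0.0016, q = 0.017; rho = 0.44, p = 0.0021; r = 0.40 without the 2 farthest strains). *Slc17a1* also passed between these tissues (r = 0.34, q = 0.090), though not without the 2 farthest strains (r = 0.28, q = 0.23), and 21.3% of all genes had a positive correlation there. Between lung and kidney *Slc20a2* passed (r = 0.36, p = 0.013, q = 0.089; rho = 0.40; r = 0.38 without the 2 farthest strains), against 15.0% of all genes. It lost the call without CC032 and CC042 (r = 0.32, q = 0.15). Between liver and lung no member passed, nor did any have an unadjusted p below 0.05, against 11.7% of genes positive. *Slc34a1* had r = -0.01 between liver and kidney and -0.05 between lung and kidney, so its level outside the kidney did not follow the order of its renal level. *Slc20a1* had r between -0.26 and 0.06 in the 3 tissue pairs.

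The type III carriers had their own companions. In liver *Slc20a1* was most like *Rgs16*, *Klf10*, *Ttc23*, *Ino80* and *Fnip2* (r from 0.63 to 0.70, q from 0.0053 to 0.0070; 1.12% of genes positive). *Rgs16*, a regulator of G-protein signalling, and *Klf10*, a zinc finger factor, both cycle with the day in mouse liver. Among 13 clock genes looked at after this was seen, r with *Slc20a1* ran from -0.42 to 0.49. The clock outputs *Dbp* and *Hlf* had 0.48 and 0.49, *Per2* 0.47 and *Arntl* -0.42, given without a test. Smaller values were found for *Cry2* (0.35), *Nr1d2* (0.32), *Nr1d1* (0.18), *Tef* (0.12), *Cry1* (-0.15) and *Clock* (-0.36). *Arntl* and *Clock* had median counts of only 5 and 4. *Per3* (0.28), *Per1* (0.14) and *Npas2* (-0.33) had median counts of 2, 0 and 2 and were not resolved. The hour of tissue collection is not among the labels, and its part in the strain spread of *Slc20a1* was not tested. In lung *Slc20a1* correlated positively with 12.5% of genes, led by *Nup153*, *Cdk17*, *Herc1*, *Gosr2* and *Dopey1* (r from 0.68 to 0.71), and *Slc20a2* with 7.6%. The leading genes for *Slc20a2* in lung were *Tcap* and *Actn2* (r = 0.77 each), which encode sarcomere proteins of striated muscle, followed by the mitochondrial genes *Mdh2*, *Slc25a4* and *Atp5o* (r = 0.75 each, q = 0.00059 for all 5). Whether muscle tissue in the lung samples has a part in this was not tested. In liver *Slc20a2* was most like *Krba1* (r = 0.64, q = 0.042) and in kidney no gene passed with either type III carrier.

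Within a tissue, none of the 21 member pairs in kidney, 15 in liver and 6 in lung passed q ≤ 0.1 with the permutation test. The median r of these pairs was -0.02, 0.02 and -0.09. Of all genes, 0% to 5.82% correlated positively with a member in kidney, 0% to 1.12% in liver and 0.183% to 12.5% in lung. An unadjusted p below 0.05 was reached by 4, 3 and 1 pairs, and the share of all genes under that p was not counted. In kidney the lowest q was that of *Slc34a1* with *Slc17a3* (r = 0.36, q = 0.11), and the highest r that of *Slc20a1* with *Slc20a2* (r = 0.45, q = 0.18). With deposited TPM without TMM, 13 kidney, 6 liver and 3 lung pairs passed, so the count depended on the scaling. The share of all genes passing with that scaling was not counted. These pair counts are therefore not read as particular to the members.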

How the data were processed

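The authors aligned 50-base single-end reads to strain-specific pseudo-genomes (Build37, mm9) and RefSeq pseudo-transcriptomes with STAR 2.5.3a and RSEM, from ribosome-depleted RNA with an integrity value of at least 7.0. The deposited expected count is on the scale of reads (25 of all values had any fractional part, with no tolerance, and were rounded). The deposited TPM is scaled by transcript length and library. FPKM was not used.

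Counts were scaled by TMM in edgeR 4.0.16. Tissue differences were fitted by limma-voom (version 3.58.1 under R 4.3.3) on the 12127 genes over 1 CPM in 30% of libraries or more. Strain was the replicate block, since the 3 tissues of a strain come from 1 mouse, and p-values were adjusted over all genes (Benjamini-Hochberg). The study's batch term is not among the labels and was left out. The study's methods give q ≤ 0.01, tried as an alternative. Correlations used rank inverse normal CPM (Blom offset 0.375), genes with over 3 counts in at least 50% of libraries, and 1000000 permutations of strains, adjusted over all genes. Values at or under 3 counts were read as not resolved. Both tests were checked on simulated data. Promoter sequences are RefSeq's. Other steps ran in Python 3.11.15 with scipy 1.17.1, numpy 2.4.6 and pandas 2.3.3, and DESeq2 was version 1.42.0.

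The members, gene lists and tests were chosen with earlier results of these data known. Genes named are the members, the 5 genes most correlated with each in its leading tissue (1 of them is not reported here), and list genes with the largest changes or a known tie to a member; most-like genes in other tissues, *Kap*, *Lcn2*, the clock genes and *Pfn3*'s position were added after seeing values. Alternatives covered thresholds, scalings, filters, tools, the replicate block and left-out strains (CC032 and CC042, left out in an earlier analysis, and, chosen after seeing the data, CC020 and CC035).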

Additional observations from a re-analysis of the deposited data

How the results depend on the processing

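The large tissue differences of the type II and type I genes against their leading tissue kept direction and call under every alternative tried. The fit with no replicate block gave *Slc34a1* a log2 fold change of -9.56 between liver and kidney and changed no call of a member, so the paired and unpaired fits called the same members. The number of members higher in liver than in kidney was 1 and became 0 with log2(TPM + 0.1), log2(TPM + 1) or total counts and 2 with no fold change threshold. The number higher in liver than in lung was 5 and became 3 with DESeq2, DESeq2 size factors, log2(TPM + 0.1) or total counts, 2 with log2(TPM + 1) and 4 without CC020 and CC035. *Slc20a1* reversed between liver and kidney (-0.35 and -0.33 on the TPM scales, -0.32 with total counts) and between liver and lung (-0.31, -0.30 and -0.18), and *Slc34a1* reversed between liver and lung (-0.16, -0.14 and -0.14); these scalings moved the median of all genes. Member correlations past the threshold between liver and kidney went from 2 to 1 with Spearman, with TPM without TMM and without the 2 farthest strains, and those between lung and kidney from 1 to 0 with TPM without TMM and without CC032 and CC042. Within tissues, 0 member pairs passed; TPM without TMM gave 13 in kidney, 6 in liver and 3 in lung, log2 CPM gave 3 in kidney, leaving out CC020 and CC035 gave 1 in kidney (*Slc17a3* with *Slc34a3*, r = -0.47), and TMM-normalized TPM gave 1 in lung. *Slc34a2* with *Xpr1* in kidney reversed to 0.0259 with TPM without TMM. The expression filter kept 3 members in liver with TPM without TMM and 6 with a TPM threshold of 0.5, against 5. The cause was not tested for the correlations. Depth limits *Slc34a3* and the type I genes outside the kidney, and 1 mouse per strain limits all strain values.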
